A study of Arabidopsis thaliana with 12 samples.

Results

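The 9 ribosome biogenesis and nucleolar genes described here were RBL, AT1G79150, AT4G26600, AT2G40360, AT3G23620, AT4G04940, AT3G06530, AT1G06720 and AT3G05060, each read by 1 of the 22810 probe sets of the Affymetrix ATH1 array, on which 13286 genes could be named from a probe set of a single gene. AT1G79150 had a second probe set, which is given beside the first. The genes were picked by name with measured values of these arrays in view, over all 4 groups and with no single comparison or threshold stated. Every value of the 9 genes is therefore a description, with no test.

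The study exposed wild-type Arabidopsis thaliana (ecotype Columbia) plants, 7 weeks old, to gaseous formaldehyde and profiled RNA from their rosette leaves on 12 arrays, 1 per plant. All plants first spent 72 h in constant light at 24 °C. Of the 4 groups of 3 plants, 1 then stayed outside the exposure chamber under the acclimation conditions (under 0.08 ppm formaldehyde), and the others spent 150 min in the ventilated chamber in clean air (under 0.04 ppm), at 1 to 2 ppm (low) or at 14 to 16 ppm (high). The plants of a condition shared the chamber, so chamber run and condition cannot be told apart, and the spread within a group is that between plants of 1 run. A group difference in leaf RNA also cannot tell more cells of a type from more RNA per cell.

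Ribosomes are assembled in the nucleolus, where RNA polymerase I makes the precursor of the large ribosomal RNAs and a large set of assembly factors modifies, cuts and folds it while ribosomal proteins join. The small subunit processome forms on the nascent precursor around the U3 small nucleolar RNA and is needed for the small subunit. Other factors, among them the Noc proteins and the PeBoW complex, act on the precursors of the large subunit. In plants these genes are most active in growing and dividing tissue, and many of them respond to sugar and to growth signals. The roles given below rest largely on the yeast homologues.

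Across the 9 genes the groups fell in 1 order. The 3 plants outside the chamber had the lowest values, the clean-air plants were higher, and the low-formaldehyde plants were higher again. In each of the 9 genes all 3 arrays of one group lay apart from all 3 of the next in that order, which held for 595 of the 13874 probe sets tested (4.29%). Because the genes were chosen from these values, nothing is read from that count. High formaldehyde did not extend the order uniformly: the median difference of the 9 genes between high and low was -0.00, with single genes between -1.18 and 0.30 (log2).

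**Figure D1:**
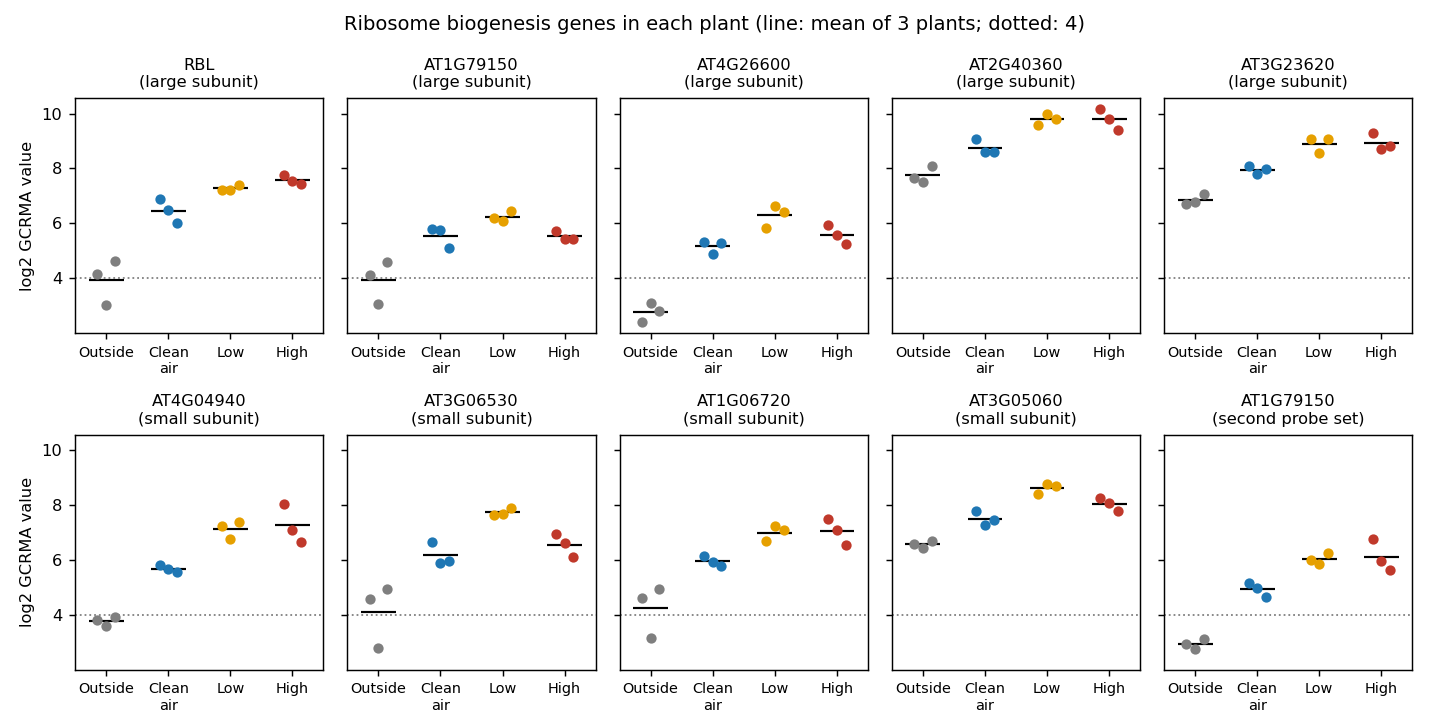
Log2 GCRMA value (vertical axis) of each gene in each of the 12 plants, by group; points are plants, black lines are means of 3 and the dotted line marks 4, below which signal was near background. Every gene is lowest outside the chamber, higher in clean air and higher still at low formaldehyde, while the high group lies from clean-air level (AT1G79150, first probe set) to slightly above the low group (RBL).

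The small subunit genes come first. AT4G04940 encodes the homologue of Utp21, a WD40-repeat protein of the processome. Its log2 values were 3.80, 3.59 and 3.94 outside, 5.84, 5.68 and 5.55 in clean air, 7.22, 6.78 and 7.37 at low and 8.05, 7.11 and 6.67 at high formaldehyde. The 3 groups up to low formaldehyde did not overlap, and the high group spanned the low one. All outside values were at or below 4, so clean air was at least 3.22-fold and low formaldehyde at least 8.72-fold above the outside level. Low formaldehyde was 1.44 ± 0.30 and high formaldehyde 1.59 ± 0.30 above clean air (log2, SE), the largest difference from clean air of any of the 9 genes at high formaldehyde.

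AT3G06530 encodes the homologue of Utp10, a very large repeat protein of the processome. It was at 4.58, 2.79 and 4.93 outside, 6.64, 5.90 and 5.96 in clean air, 7.65, 7.67 and 7.89 at low and 6.96, 6.61 and 6.10 at high formaldehyde (log2). Its low-formaldehyde plants were the highest of all, with every high-formaldehyde plant below them and overlapping clean air. The low group exceeded clean air by 1.57 ± 0.47 and the high group lay 1.18 ± 0.47 under the low one, written as a difference of -1.18 (log2, SE). The difference between clean air and outside was 2.07, and 1.41 without replicate 2 of the outside group, the plant at 2.79.

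AT1G06720 encodes the homologue of Bms1, a GTPase that acts in the processome. Its values were 4.63, 3.17 and 4.95 outside, 6.15, 5.94 and 5.79 in clean air, 6.69, 7.22 and 7.08 at low and 7.51, 7.09 and 6.56 at high formaldehyde (log2). The high and low groups overlapped and both lay above clean air, by 1.09 ± 0.40 and 1.03 ± 0.40 (log2, SE). Clean air exceeded the outside group by 1.71, and by 1.17 without replicate 2 of that group.

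AT3G05060 encodes Nop58, a core protein of the box C/D small nucleolar ribonucleoproteins that guide methylation of ribosomal RNA. It was at 6.57, 6.45 and 6.71 outside, 7.79, 7.27 and 7.46 in clean air, 8.41, 8.77 and 8.71 at low and 8.28, 8.07 and 7.79 at high formaldehyde (log2). All its values were well above 4, so its fold changes are not limited by background. Clean air was 1.91-fold above outside and low formaldehyde 2.17-fold above clean air, whereas high formaldehyde was 1.45-fold above clean air. The high plants all lay below the low plants and touched the range of the clean-air plants at 7.79.

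Among the large subunit genes, RBL (REBELOTE) encodes a Noc2-family protein, which in yeast pairs with other Noc proteins on large subunit precursors. Its log2 values were 4.17, 3.04 and 4.62 outside, 6.90, 6.47 and 6.01 in clean air, 7.22, 7.21 and 7.41 at low and 7.75, 7.53 and 7.44 at high formaldehyde. Clean air exceeded outside by 2.52 ± 0.35 (log2, SE; 2.06 without replicate 2 of the outside group), with 1 of the 3 outside values below 4. It was also the only one of the 9 in which all 3 high plants lay above all 3 low plants, by a mean of 0.30 ± 0.35 (95% interval -0.47 to 1.06).

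AT1G79150 encodes the homologue of Noc3, a partner of Noc2. Its first probe set read 4.12, 3.06 and 4.60 outside, 5.81, 5.75 and 5.09 in clean air, 6.20, 6.10 and 6.44 at low and 5.73, 5.44 and 5.44 at high formaldehyde. Its second probe set read 2.94, 2.76 and 3.13 outside, 5.17, 4.99 and 4.66 in clean air, 5.99, 5.86 and 6.26 at low and 6.76, 5.95 and 5.64 at high formaldehyde (log2). Both probe sets kept the order outside, clean air, low, and they disagreed at the high dose. The first put high formaldehyde at the clean-air level (difference -0.01 ± 0.34), and the second put it 1.17 ± 0.28 above clean air and 0.08 ± 0.28 above low (log2, SE). Over the 12 arrays the readings of the pair correlated at r = 0.88, which is a description of 1 gene on shared arrays. The high-dose level of this gene is therefore uncertain.

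AT4G26600 encodes an rRNA cytosine methyltransferase of the Nop2 family. It was at 2.40, 3.12 and 2.80 outside, 5.33, 4.90 and 5.29 in clean air, 5.83, 6.64 and 6.41 at low and 5.94, 5.57 and 5.25 at high formaldehyde (log2). All outside values were below 4, so clean air was at least 2.25-fold and low formaldehyde at least 4.90-fold above them. Low formaldehyde exceeded clean air by 1.12 ± 0.28, and high formaldehyde exceeded it by 0.41 ± 0.28 with overlapping plants (log2, SE).

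AT2G40360 encodes the homologue of Bop1, which forms the PeBoW complex with pescadillo and WDR12. Its values were 7.66, 7.51 and 8.09 outside, 9.06, 8.60 and 8.59 in clean air, 9.57, 9.99 and 9.82 at low and 10.18, 9.79 and 9.41 at high formaldehyde (log2). The steps were of similar size: clean air was 1.99-fold above outside, and low and high formaldehyde were each 2.07-fold above clean air. High and low had the same mean, 9.79, with a 95% interval of the difference from -0.50 to 0.50.

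AT3G23620 encodes the homologue of Rpf2, a Brix-domain protein that in yeast brings the small ribosomal 5S RNA particle to the large subunit precursor. It was at 6.69, 6.77 and 7.08 outside, 8.08, 7.81 and 7.97 in clean air, 9.06, 8.56 and 9.08 at low and 9.29, 8.69 and 8.81 at high formaldehyde (log2). Clean air exceeded outside by 1.11 ± 0.20, and the low and high groups exceeded clean air by 0.95 ± 0.20 and 0.98 ± 0.20 (log2, SE). Its low and high groups overlapped.

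The genes thus fell into a pair of patterns at the high dose. In RBL, AT4G04940, AT1G06720, AT2G40360 and AT3G23620 the high group was within 0.30 of the low group and did not overlap clean air. In AT3G06530, AT4G26600, AT3G05060 and the first probe set of AT1G79150 it lay between 0.58 and 1.18 below the low group and overlapped clean air. All 9 genes had every low array above every clean-air array (21.0% of all probe sets), and 5 of 9 had every high array above every clean-air array (27.1%). Between high and low, 1 gene had all high arrays higher (25.2%) and 3 had all of them lower (33.7%). Each pattern held small and large subunit genes. The median difference between high and low was -0.26 over the 4 small subunit genes and -0.00 over the 5 large subunit genes.

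Much of the distance between the outside plants and the low-formaldehyde plants was already present in clean air. The share was lowest for AT3G05060 (45.5%) and AT2G40360 (48.6%) and highest for RBL (75.5%). With values below 4 raised to 4 the range over the 9 genes was 45.5% to 72.9%. The median difference over the 9 genes was 1.71 for clean air against outside, 1.05 for low against clean air and 0.98 for high against clean air, beside medians over all probe sets of 0.02, -0.01 and -0.10 (log2). The first of these medians was 1.31 with values below 4 raised to 4. Comparisons that share the clean-air plants are not independent of each other.

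In limma's fit over all probe sets 9 of the 9 genes were higher at an adjusted p under 0.05 in clean air than outside, where 1.70% of all probe sets were, 6 of 9 at low against clean air (11.8% of all) and 6 of 9 at high against clean air (22.8% of all). Between high and low 0 were higher (21.1% of all) and 1, AT3G05060, was lower (28.7% of all). The counts of calls and of non-overlapping arrays come from the comparisons in which the genes were chosen, and nothing is read from them.

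Plants of a group varied together. Replicate 1 was the highest plant of its group in all 9 genes in clean air and in all 9 genes at high formaldehyde. Replicate 2 was the lowest outside plant in 7 of 9 genes, by more than a log2 unit in RBL, AT1G79150, AT3G06530 and AT1G06720, while in AT4G26600 it was the highest. Over the 12 arrays the 36 pairs of genes correlated at r between 0.85 and 0.99 (median 0.92). Taken as deviations from the group means, the same pairs ran from -0.26 to 0.98 (median 0.54), and the closest pair was RBL and AT1G79150. These correlations share arrays, plants and normalization.

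Other genes of the pathway were taken from a list of 76 further biogenesis and nucleolar factors, of which 42 had a probe set named for them alone and 39 were tested. The list was written from general knowledge of the pathway, but with earlier results of these data known. Its counts and adjusted p-values are therefore not an independent check on the genes described above. The same holds for the lists of polymerase subunits and ribosomal proteins below. Clean air against outside was the comparison with the fewest changes overall (3.04% of probe sets, 1.70% higher in clean air). There 12 of 39 listed factors rose and 0 fell (1.34% of all probe sets were lower), and all 39 differences were positive, beside 7291 of 13874 over all probe sets. The median of the list was 0.85 (log2), beside 0.02 over all probe sets, and 32 of 39 factors had all clean-air arrays above all outside arrays (14.2% of all probe sets).

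The Nop14 homologue AT1G69070, a small subunit factor, was at 4.06, 4.04 and 3.46 outside and 5.50, 5.49 and 5.31 in clean air, a rise of 1.58 ± 0.27 (log2, SE; limma adjusted p = 0.0167) that was 1.40 with the 1 outside value below 4 raised to 4. The Utp7 homologue AT3G10530 rose by 1.56 ± 0.26 (adjusted p = 0.0144), the Utp14 homologue AT4G02400 by 1.53 ± 0.32 (adjusted p = 0.0303) and the helicase gene AT3G18600 (RH51) by 1.36 ± 0.27 (adjusted p = 0.0249). Of the factors that did not pass, those with the highest mean over the 12 arrays were the Mrt4 homologue AT1G25260, with a difference of 0.22 ± 0.17, and the GTPase gene AT1G50920 (NOG1), with 0.40 ± 0.17.

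The 12 calls depended on single plants, although the differences stayed positive for the factors named. Without replicate 1 or replicate 2 of clean air 1 call was left, without replicate 2 of the outside group 5, and from the 6 arrays of the comparison alone 4. The count was 22 with spike-in scaling and 19 with array weights. Calls over all probe sets fell in the same fits, from 422 to 88 and 65 without those clean-air plants. In these fits AT1G69070 and AT3G10530 kept differences of at least 1.39 and 1.37, with adjusted p up to 0.0668 and 0.0558. AT4G02400 and AT3G18600 also lost their calls without replicate 1 or 2 of the outside group, and AT3G18600 also when the third clean-air plant was left out (adjusted p reaching 0.119 and 0.079).

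RNA polymerase I subunit genes moved in the same direction. Of 6 listed subunit genes 4 had a named probe set, and all 4 rose in clean air against outside (1.70% of all probe sets rose). The largest subunit gene NRPA1 rose by 1.30 ± 0.24, NRPA2 by 1.09 ± 0.21, AT1G75670 (the RPA43-type subunit) by 1.08 ± 0.22 and AT3G13940 (the RPA49-type subunit) by 0.98 ± 0.20 (log2, SE; limma adjusted p from 0.0187 to 0.0303). Leaving out either replicate 1 or replicate 2 of clean air ended each of these calls, and leaving out replicate 2 of the outside group ended all but that of NRPA1 (adjusted p up to 0.116). NRPA2 and AT1G75670 also missed without replicate 1 of the outside group, AT1G75670 without replicate 3 of that group, and AT1G75670 and AT3G13940 without replicate 3 of clean air. The array's control probe set for 25S ribosomal RNA, part of the polymerase's product, was at 4.58 ± 0.23 outside, 4.12 ± 0.26 in clean air, 4.17 ± 0.06 at low and 5.18 ± 0.71 at high formaldehyde (log2, SD, n = 3). The 3 high arrays read 5.85, 4.43 and 5.25, the middle one within the range of the outside plants. The clean-air and low-formaldehyde values lie near 4, the level treated as background. Nothing about the output of ribosomal RNA is read from this probe set.

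**Figure D2:**
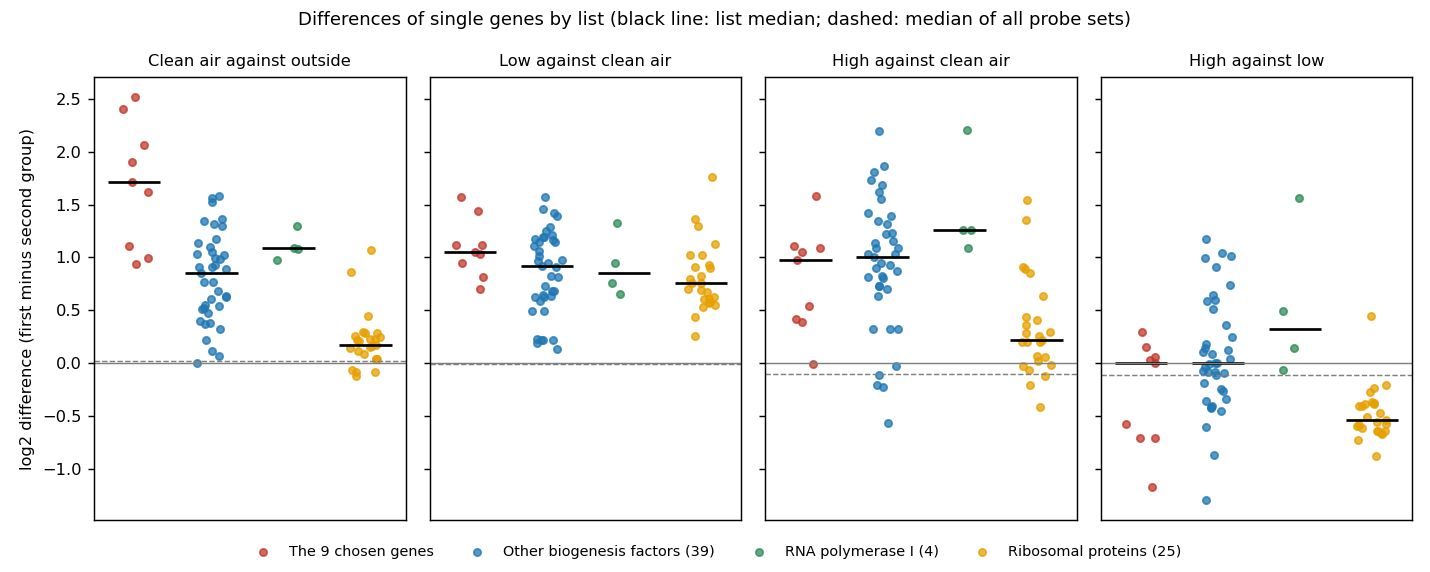
Log2 differences (vertical axis) of single genes in the 4 comparisons, for the 9 chosen genes, 39 other biogenesis factors, 4 RNA polymerase I subunits and 25 ribosomal proteins; black lines are list medians and dashed lines medians of all probe sets. In clean air against outside the biogenesis factors and polymerase subunits lie above the ribosomal proteins (medians 0.85, 1.09 and 0.17). Most ribosomal proteins had higher levels than most factors. In high against low the ribosomal proteins lie below 0 (median -0.54) but for RPS2D (0.45).

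Ribosomal protein genes, whose products the factors assemble, had 29 named probe sets on a list of 70, of which 25 were tested. In clean air against outside 0 of 25 passed limma's test, and 3 of 25 had an unadjusted p under 0.05, beside 2772 of 13874 over all probe sets. Their median difference was 0.17, and 5 of 25 had all clean-air arrays higher (14.2% of all probe sets). A direct test of this list against the biogenesis factors was not made, and most ribosomal proteins had higher levels than most factors. AT4G30800 (RPS11B) and AT4G10450 (RPL9D), at 6.05 and 7.66 outside, differed by 1.07 and 0.86 (log2). AT3G57490 (RPS2D), at 8.29, differed by 0.09. Among abundant factors PRH75, at 9.65 outside, differed by 0.11 and AT2G44860, at 8.98, by 0.68. The part of level in the difference between the lists was not tested. Ribosomal protein families hold close paralogues, and a probe set can read more than the gene it is named for.

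Low formaldehyde was compared with clean air next. Of the 39 other factors 26 rose and 0 fell (11.8% of all probe sets rose and 11.4% fell), with a median of 0.92 beside -0.01 over all probe sets. AT3G10530 (Utp7) rose by 1.57 ± 0.26, AT3G18600 (RH51) by 1.46 ± 0.27, AT1G80750, related to ribosomal protein L7, by 1.42 ± 0.20 and AT5G14050 (Utp18) by 1.40 ± 0.28 (log2, SE; adjusted p from 0.0019 to 0.0069). The helicase gene PRH75 and the Krr1 homologue AT5G08420, among the most abundant factors, differed by 0.22 ± 0.19 and 0.50 ± 0.18 and did not pass. AT5G08420 passed without replicate 2 of the outside group.

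Ribosomal protein genes rose at low formaldehyde: 24 of 25 passed, all upward (11.8% of all probe sets). Their median was 0.75, beside -0.01 over all probe sets. AT4G30800 (RPS11B) rose by 1.76 ± 0.36 and AT2G20450 (RPL14A) by 1.36 ± 0.21 (adjusted p = 0.0077 and 0.0024). Leaving out replicate 2 of clean air or replicate 3 of low formaldehyde gave 15 calls, and the count was 7 with arrays scaled to spike-in controls. That scaling moves the median of all probe sets from -0.01 to -0.18. Of the polymerase subunits NRPA2 rose by 1.32 ± 0.21, AT3G13940 by 0.95 ± 0.20 and NRPA1 by 0.76 ± 0.24, the last a call lost in 7 of 12 fits that left out 1 plant, those without any clean-air or low-formaldehyde plant or replicate 2 of high formaldehyde (adjusted p up to 0.117). AT1G75670 differed by 0.65 ± 0.22 (adjusted p = 0.0565) and passed without replicate 2 of low formaldehyde or without replicate 1 or 3 of high formaldehyde.

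High formaldehyde against clean air raised 30 of the 39 other factors and lowered 0 (22.8% of all probe sets rose and 30.1% fell), with a median of 1.00 beside -0.10 over all probe sets. YAO, a processome protein that binds U3, was at 6.52, 5.51 and 5.92 in clean air and 8.62, 8.26 and 7.66 at high formaldehyde, a rise of 2.20 ± 0.28 (log2, SE; adjusted p = 8.3e-05). The second Noc2-family gene AT2G18220 rose by 1.86 ± 0.25, the Ebp2 homologue AT3G22660 by 1.81 ± 0.33 and the Mpp10 homologue AT5G66540 by 1.73 ± 0.19. PRH75 (-0.02 ± 0.19) and AT5G08420 (-0.11 ± 0.18) did not pass.

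All 4 polymerase subunits rose at high formaldehyde against clean air (22.8% of all probe sets rose). AT1G75670 was at 6.32, 6.21 and 6.16 in clean air and 8.95, 8.28 and 8.09 at high formaldehyde, a rise of 2.21 ± 0.22 (log2, SE), and the other 3 rose by 1.09 to 1.26. Of the ribosomal protein genes 7 of 25 rose and 1 fell, beside 22.8% and 30.1% of all probe sets, with a median of 0.22 beside -0.10. The 8 calls were 5 with spike-in scaling and 16 with array weights. AT4G30800 (RPS11B) rose by 1.55 ± 0.36 and AT3G57490 (RPS2D) by 1.35 ± 0.22, and AT4G02230 (RPL19C) fell by 0.42 (SE 0.11).

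High and low formaldehyde were then compared directly. Of the 39 other factors 8 were higher at the high dose (21.1% of all probe sets) and 4 lower (28.7%), and the median was -0.00, beside -0.11 over all probe sets. The 4 largest positive differences were of the helicase gene AT5G65900 (RH27), at 1.17 ± 0.31, AT2G18220, at 1.04 ± 0.25, and the helicase genes AT5G05450 (RH18), at 1.01 ± 0.21, and AT5G54910 (RH32), at 0.99 ± 0.25 (log2, SE; adjusted p from 0.0023 to 0.0087). In yeast such DEAD-box helicases remodel the pre-ribosomal RNA. The other listed helicase genes went both ways. From low to high, AT3G18600 (RH51) averaged 9.29 and 8.86, PRH75 9.98 and 9.74, and AT1G77030 (RH29) 4.14 and 3.80. AT3G09720 (RH57) averaged 6.27 and 6.26, AT5G60990 (RH10) 8.73 and 8.90, and AT2G40700 (RH17) 6.14 and 6.79 (log2).

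Lower at the high dose were AT3G13180, with a difference of -1.30 ± 0.25, the Rrp12 homologue AT2G34357 (-0.87 ± 0.28), AT5G08420 (-0.61 ± 0.18) and AT1G25260 (-0.45 ± 0.17). AT3G13180 was listed as a NOL1/NOP2/sun family gene, and whether it acts in nucleolar ribosome assembly is uncertain. The call of AT1G25260 was lost in 10 of 12 fits without 1 plant, all but those without replicate 1 of low or of high formaldehyde (adjusted p up to 0.185). That of AT2G34357 was lost without replicate 2 or 3 of low or replicate 3 of high formaldehyde, and that of AT5G08420 without replicate 3 of low or replicate 2 of high formaldehyde. The abundant factors AT2G44860 (-0.19 ± 0.15) and AT1G50920 (-0.10 ± 0.17) did not pass.

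Ribosomal protein genes were lower at high than at low formaldehyde in 17 of 25 cases and higher in 0, beside 28.7% and 21.1% of all probe sets, with a median of -0.54 beside -0.11. AT3G11250 (RPP0C) differed by -0.89 ± 0.17 and AT5G60670 (RPL12C) by -0.73 ± 0.23 (log2, SE; adjusted p = 0.0014 and 0.0222). The second call was lost without replicate 3 of low or replicate 2 or 3 of high formaldehyde (adjusted p up to 0.0919). The count was 10 without replicate 3 of high formaldehyde and 9 with spike-in scaling. Of the 4 polymerase subunit genes AT1G75670 passed the test between high and low (1.56 ± 0.22). NRPA1 had all high arrays above all low arrays with a difference of 0.49 ± 0.24 that did not pass, and AT3G13940 (0.14 ± 0.20) and NRPA2 (-0.06 ± 0.21) did not pass.

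**Figure D3:**
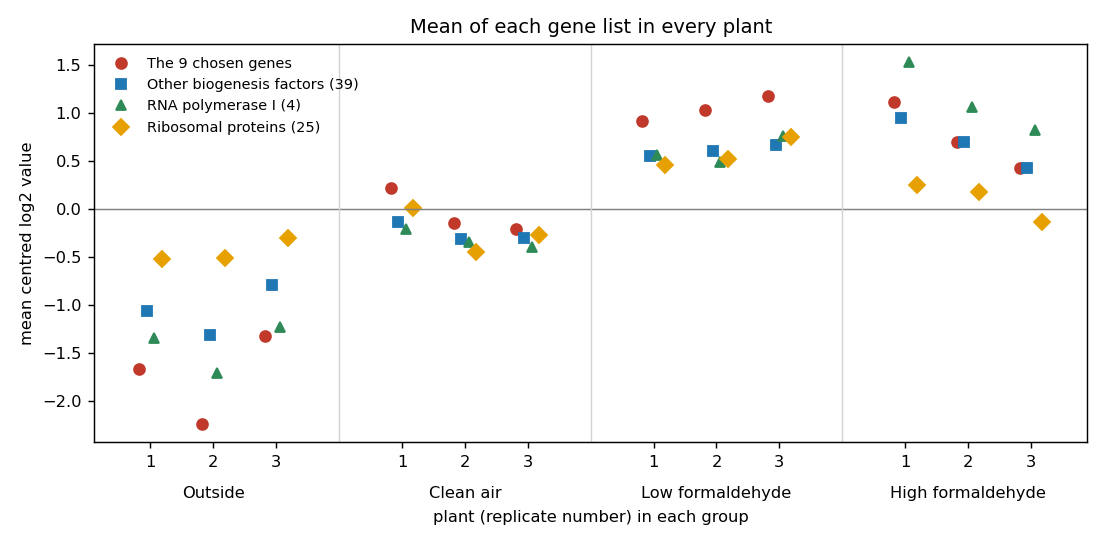
Mean over the genes of each list of the log2 value centred on the gene's own mean (vertical axis), for each of the 12 plants by group. The 9 chosen genes run from a group mean of -1.74 outside to 1.04 at low and 0.75 at high formaldehyde, and ribosomal proteins from -0.44 outside to 0.58 at low and 0.10 at high formaldehyde.

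**Figure D4:**
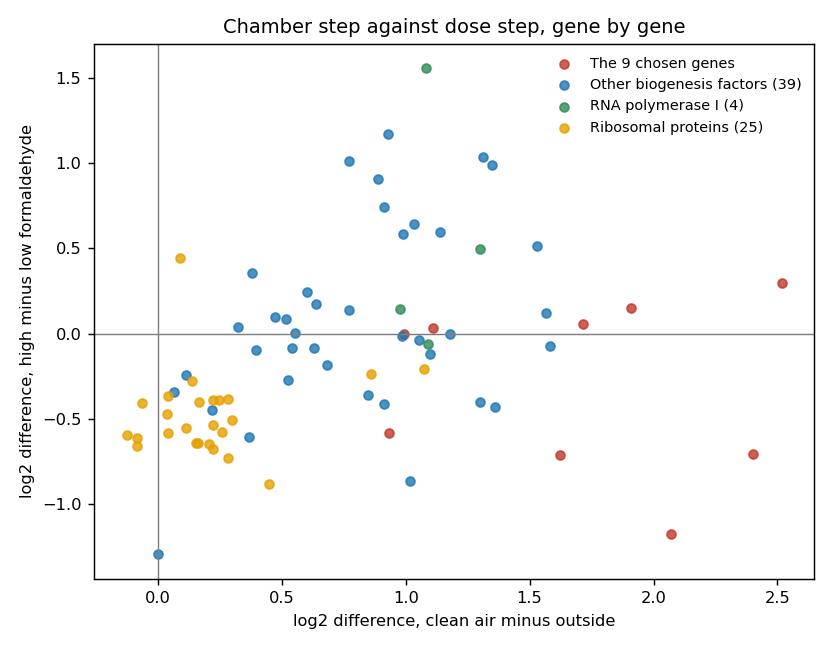
Log2 difference of clean air minus outside (horizontal axis) against high minus low formaldehyde (vertical axis), from separate sets of plants, for single genes of the 4 lists. Of the 9 chosen genes, those far to the right lie both near 0 (RBL, at 2.52 and 0.30) and below it (AT3G06530, at 2.07 and -1.18). Most ribosomal proteins lie below 0 on the vertical axis. On the horizontal axis 21 of 25 lie above 0, with a median of 0.17.

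The named genes whose pattern was most like the mean of the 9 genes were ranked by Pearson's r over the 12 arrays among 7439 tested probe sets of a single gene. Outside the fixed lists the closest were AT2G37990, the homologue of the large subunit factor Rrs1 (r = 0.98), AT2G18330 (0.98), the pentatricopeptide repeat gene PPR596 (0.98), AT1G80720 (0.98), AT3G07860 (0.98) and AT3G55605 (0.98). The closest listed genes were the Brix-domain gene AT1G52930 (r = 0.99), which ranked first of all, AT3G18600 (0.98) and the Utp5 homologue AT5G11240 (0.98). Of the 100 closest among the 7439 ranked, 16 were listed biogenesis factors, 3 polymerase subunits and 2 ribosomal proteins. That is 16 of 39, 3 of 4 and 2 of 25 of those lists. The 9 genes and the lists were chosen with results of these arrays known, so nothing is read from these shares. These correlations describe 4 group means and shared arrays.

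Other measures moved between the groups. The arrays' medians were between 5.77 and 5.87 by group. The 3' minus 5' signal of the actin, GAPDH and ubiquitin control probe sets averaged 1.12 outside, 1.21 in clean air, 1.47 at low and 1.60 at high formaldehyde. In replicates 1, 2 and 3 it was 1.13, 1.08 and 1.15 outside and 1.17, 1.27 and 1.19 in clean air. It was 1.49, 1.50 and 1.42 at low and 1.83, 1.55 and 1.41 at high formaldehyde. The 9 genes deviated from the group mean by 0.08, -0.49 and 0.42 outside and by 0.26, -0.10 and -0.16 in clean air. The deviations were -0.13, -0.01 and 0.13 at low and 0.37, -0.05 and -0.32 at high formaldehyde. The bioC spike-in signal was 8.78 at low formaldehyde against 6.53 to 7.23 elsewhere (log2). The spike-in scaling used the bioB, bioD and cre controls and left bioC out. The mean of those controls was 10.27 outside, 10.01 in clean air, 10.18 at low and 10.18 at high formaldehyde (log2). Of 6 markers of dividing cells 2 had a named probe set: AUR1 averaged 3.58 outside, 3.34 in clean air, 4.66 at low and 3.53 at high formaldehyde, and PRL 5.46, 5.49, 5.77 and 4.82 (log2). In clean air against outside PRL did not pass (difference 0.04). AUR1 was below 4 on every array of both groups, so nothing is read from its difference of -0.24. AUR1 was above 4 only on the low-formaldehyde arrays and so passed the filter through that group alone. Its comparisons with low formaldehyde are therefore a description, with no test. AUR1 was at least 1.58-fold higher at low formaldehyde than in clean air, where all its values were below 4. Both markers were lower at high than at low formaldehyde, where 28.7% of all probe sets were called lower. The fall was at least 1.58-fold for AUR1 and 0.96 on the log2 scale for PRL (limma adjusted p = 0.0277). The leaf marker RCA averaged between 14.75 and 15.12, and the root marker PYK10 was at most 2.28 on any array. The phloem marker SWEET11 averaged 12.76 outside, 12.86 in clean air, 13.04 at low and 12.07 at high formaldehyde, the trichome marker TRY 5.76, 5.33, 5.48 and 3.03, and the guard cell marker FMA 5.25, 5.78, 5.23 and 5.35. RCA, SWEET11 and TRY were also lower at high than at low formaldehyde in the test (adjusted p from 0.0037 to 0.0199), and FMA did not pass. The part of any of these in the results for the 9 genes or the lists was not tested.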

How the data were processed

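The values were deposited as a table of log2 expression per probe set, made by the authors with GCRMA per the submitters' processing notes, with no version named; that the scale is log2 follows from the spread of the numbers. The lowest value on the arrays was 2.11, and values below 4 were treated as near background. Depth has no meaning for arrays, and 3 per group limits the precision. No 2 arrays in a group were identical (r between 0.985 and 0.996).

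With limma 3.58.1 (R 4.3.3), lmFit and trended eBayes gave 4 group means from all 12 arrays. After removal of 64 control probe sets, 13874 probe sets above 4 on at least 3 arrays were tested. Calls needed an adjusted p under 0.05 (Benjamini-Hochberg, over every tested probe set); single adjusted p-values are limma's. Errors are the fit's SE unless marked SD. Where all 3 outside arrays were at or below 4, a fold is given as "at least", from the level 4. The fit was tested on simulated data. Of 22810 probe sets, 13436 were named with 1 gene through the platform table and the RefSeq annotation of TAIR10.1; all 9 genes matched. Regulators of the pathway (TOR, S6K1, S6K2, TCP20, ANAC082) could not be matched to a probe set by name.

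The 9 genes and the gene lists were chosen with earlier results of these data known. Named list genes are, per comparison, up to 4 called factors per direction by size and the 2 most abundant not called, up to 2 called ribosomal proteins per direction, all polymerase subunits, and the closest 6 and 3 by profile. The 3 biogenesis factors AT3G12860, AT4G16630 and AT1G10300 and 4 ribosomal protein genes were too low to be tested. No tested gene among the 9 genes, the other factors, the polymerase subunits or the ribosomal proteins was above 4 in only 1 group. The marker AUR1 was, at low formaldehyde. Alternatives covered the filter, the scaling, the spread, the arrays fitted and each plant left out. Plants with the same replicate number did not deviate together (r from -0.33 to 0.33 over 18 pairs), so the numbers were not used to pair them. Plots were made in Python 3.11.15 (matplotlib 3.10.9).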

Additional observations from a re-analysis of the deposited data

How the results depend on the processing

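Counts of called other biogenesis factors stayed within 1.5 times under most alternatives. In clean air against outside the main count of 12 was 22 with spike-in scaling, 19 with array weights and 4 from the 6 arrays alone, and between 1 and 16 without 1 plant. Ribosomal protein calls for high against clean air were 8, 5 with spike-in scaling and 16 with array weights. For low against clean air they were 24, 7 with spike-in scaling and between 15 and 24 without 1 plant. For high against low they were 17, 9 with spike-in scaling and between 10 and 19 without 1 plant. For clean air against outside they were 0, and 1 with spike-in scaling or with array weights. The median of the 9 genes for clean air against outside, 1.71, was 1.31 with values below 4 raised to 4 and between 1.19 and 1.99 without 1 plant. Set against the outside plants in place of clean air it was 2.46 at high and 2.75 at low formaldehyde. The causes were not tested. Spike-in scaling moved the median of all probe sets by comparison from -0.10 to -0.27 (high against clean air), -0.01 to -0.18 (low against clean air) and 0.02 to 0.28 (clean air against outside), and the share of calls that were upward from 43.0% to 32.6%, 50.8% to 24.8% and 55.9% to 89.0%. All calls in clean air against outside were 422, and 186 without a filter, 844 with spike-in scaling, 1188 with array weights and 103 from the 6 arrays alone. With the replicate block, other biogenesis calls were 10 in clean air against outside, 25 at low and 30 at high against clean air, and 11 for high against low, and no count moved by over 1.5 times. Of 860 single values of the 9 genes under alternatives, 27 moved by more than the spread between plants. The sign changed in 20 of the 860, in 6 differences of at most 0.15 in size (5 between high and low, and AT1G79150 at high against clean air). The 9 genes were chosen from these arrays, so nothing is read from these counts.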
